A study of Homo sapiens with 9 samples.

Results

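The cytosolic ribosomal protein genes encode the proteins that, with ribosomal RNA, build the large and small subunits of the ribosome. Members were the protein-coding genes of the deposited table whose symbol begins with RPL or RPS and continues with a protein number, A, or a stalk number P0 to P2. The rule gave 85 members of 57766 genes, 52 of the large and 33 of the small subunit. Mitochondrial ribosomal proteins and ribosomal proteins with other names, such as FAU, GNB2L1 and RPL36AL, fall outside it.

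The cells were HEK293 Freestyle, an established human embryonic kidney line grown in suspension. They were first held at a density of 1000000 cells/mL for 18 h or more, then washed in PBS, concentrated to 4000000 cells/mL and cultured for another 36 h in 1 of 3 media. The depleted group received Freestyle medium from which Zn(II) had been removed, the repleted group the same kind of medium with Zn(II) returned, and the full group untreated Freestyle medium. Each group had 3 libraries of polyadenylated RNA, which the labels call biological triplicates. No genetic change was introduced in any group. The labels also name an EDTA wash without making clear what was washed. All comparisons therefore concern 1 cell line at 1 time.

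A ribosome needs each of its proteins in about the same number, and free ribosomal proteins are unstable. Their mRNAs are among the most abundant in growing cells and most begin with a 5′ terminal oligopyrimidine (TOP) tract, through which their translation is tied to nutrient signalling. Several members fold around a zinc ion held by cysteines, and ribosomes are counted among the large stores of cellular zinc. In some bacteria, paralogs that lack the zinc site take the place of zinc-binding ribosomal proteins when zinc is scarce. The comparison of depleted with full medium addresses zinc starvation, and that of depleted with repleted medium addresses zinc apart from other effects of preparing the medium.

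Expression is given as RPKM, read numbers divided by gene length and library size, and differences as log2(RPKM + 1), a scale on which changes of weakly expressed genes look smaller than they are. A gene was called where the limma p-value, adjusted by Benjamini-Hochberg over 15774 tested genes, was below 0.05. Of the members, 83 passed the filter of at least 1 RPKM in at least 3 libraries, and RPL3L and RPL10L did not. Library totals, estimated from the steps between low values, were between 16900000 and 23300000 reads. The zinc-dependent MT2A, a metallothionein, had 6.57, 5.72 and 7.08 RPKM in depleted, 93.6, 90.1 and 96.7 RPKM in repleted and 188, 201 and 184 RPKM in full libraries. MT1X, MT1F and the zinc exporter gene SLC30A1 were also lower in depleted than in full medium, 4 of 4 called. Repleted medium did not bring them to the full level. MT2A stood at 0.49 and MT1F at 0.42 of full medium there, both called lower (limma adjusted p = 0.00114 and 0.0382). MT1X (0.43) and SLC30A1 (0.71) were lower in every repleted library than in any full one but were not called (limma adjusted p = 0.0596 for each). Of 7 listed markers of this line 1 rose and 5 fell against full medium, where 60.9% of all genes tested were called. VIM averaged 665, 585 and 577 RPKM and KRT8 90.4, 124 and 135 RPKM in depleted, repleted and full medium. The largest fall of these markers was in NEFL, at 6.53, 31.9 and 31.8 RPKM in the same order (log2 -2.12 from full medium). PAX2 averaged 0.60, 3.02 and 3.29 RPKM. The leukocyte gene PTPRC did not exceed 0.24 RPKM in any library, and CD3E, ALB and CDH5 were lower still. The globin gene HBA1 was higher in depleted medium, at 4.15 RPKM against 1.39 in repleted and 1.41 in full medium, and its part in the results was not tested.

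Members were highly expressed and covered a wide range. The mean over all libraries was at least 1000 RPKM for 60 members, 500 to 1000 RPKM for 13, 200 to 500 RPKM for 1 and below 200 RPKM for 11, with a median of 1298 RPKM. RPS2, RPS19 and RPL8 stood highest by this length-scaled level. RPS2 averaged 4112 ± 137 RPKM in depleted, 3263 ± 108 RPKM in repleted and 3162 ± 44.3 RPKM in full medium (SD, n = 3 each). Among the 11 members below 200 RPKM were the paralogs RPL10L, RPL3L, RPL22L1, RPL39L, RPL26L1, RPS27L and RPL7L1, together with RPS28, RPS26 and RPL21, whose sequences have near-identical copies elsewhere in the genome. RPL10L was listed at 0 in all 3 full libraries and reached at most 0.07 RPKM in any other. RPL3L, a paralog of RPL3 known from heart and skeletal muscle, had 0.96, 1.05 and 0.69 RPKM in depleted, 0.34, 0.49 and 0.25 RPKM in repleted and 0.37, 0.21 and 0.43 RPKM in full libraries.

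Zinc depletion was accompanied by a shift of most members by small amounts. In depleted against full medium 46 of 83 members rose, 14 fell and 23 were not called. Called in either direction were 72.3% of members, beside 60.9% of all genes tested; higher calls made up 55.4% of members beside 29.8% of all genes, and lower calls 16.9% beside 31.2%. The members' median difference was 0.11 on the log2 scale (interquartile range 0.00 to 0.25), where the median of all genes was 0.00 (-0.39 to 0.33). The differences of 79 of the 83 were smaller than 0.5 in size, as were 64.2% of those of all genes. Differences this small could be called because the libraries of a group lay close together for these abundant transcripts: the median standard error was 0.03 for members and 0.10 for all genes. In bulk RNA, fewer cells holding a transcript and less of it per cell cannot be told apart.

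The repleted libraries resembled the full ones for these genes. In depleted against repleted medium 45 of 83 members rose and 14 fell, or 71.1%, against a background of 60.7% (29.5% for higher and 31.2% for lower calls), with a median of 0.09 on the log2 scale. Both depleted comparisons use the same 3 depleted libraries. In repleted against full medium limma called 0 of 83 members, beside 0.0317% of all genes, and 4 members had an unadjusted p below 0.05, where 7.76% of all genes did. Differences of members in that comparison ranged from -0.45 to 0.12 on the log2 scale, the highest in RPS26. The libraries of the compared groups did not overlap for 65 members in depleted against full medium (67.6% of all genes), for 60 in depleted against repleted medium (65.2%) and for 8 in repleted against full medium (12.4%).

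**Figure D1:**
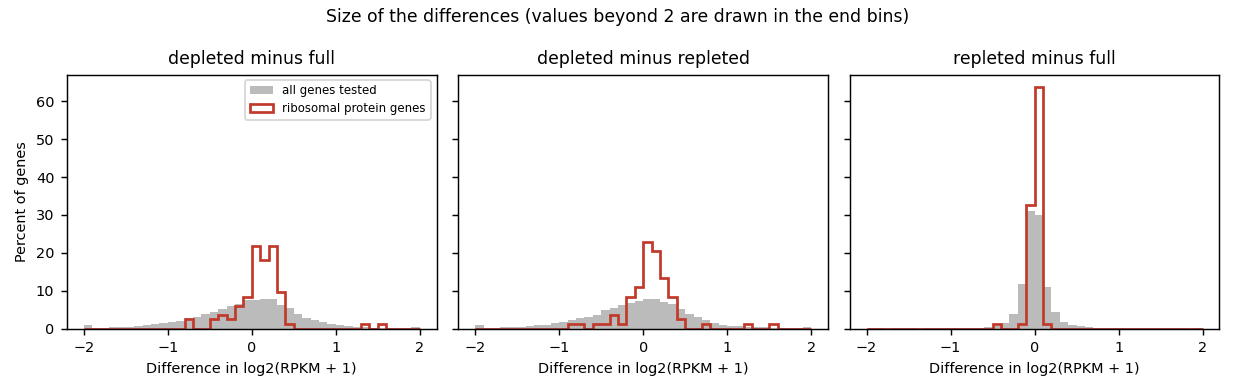
Share of genes (percent) by difference in log2(RPKM + 1), in bins of equal width, for all genes tested (grey) and ribosomal protein genes (red line), for depleted minus full, depleted minus repleted and repleted minus full medium. The members gather in a narrow peak just above 0 in both depleted comparisons, with medians of 0.11 and 0.09, and around 0.01 in the last.

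As a share of all reads, approximated by RPKM summed with each gene weighted by its effective length, the members held 6.73%, 7.09% and 6.95% in depleted libraries. They held 6.59%, 6.46% and 6.60% in repleted and 6.571%, 6.501% and 6.395% in full libraries. The depleted libraries were thus the 3 highest, with a mean of 6.92% ± 0.181 against 6.55% ± 0.078 in repleted and 6.49% ± 0.089 in full medium (SD, n = 3 each).

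Both subunits held members that moved each way. Of the 50 tested large subunit members 25 rose (50%) and 10 fell (20%) in depleted against full medium (median log2 difference 0.08). Of the 33 small subunit members 21 rose (63.6%) and 4 fell (12.1%), with a median of 0.13. Of all genes tested 29.8% rose and 31.2% fell. Against repleted medium the counts were 25 (50%) and 10 (20%) for the large subunit (median 0.07). For the small subunit they were 20 (60.6%) and 4 (12.1%), with a median of 0.17, beside 29.5% and 31.2% of all genes. The difference between subunits was not tested.

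**Figure D2:**
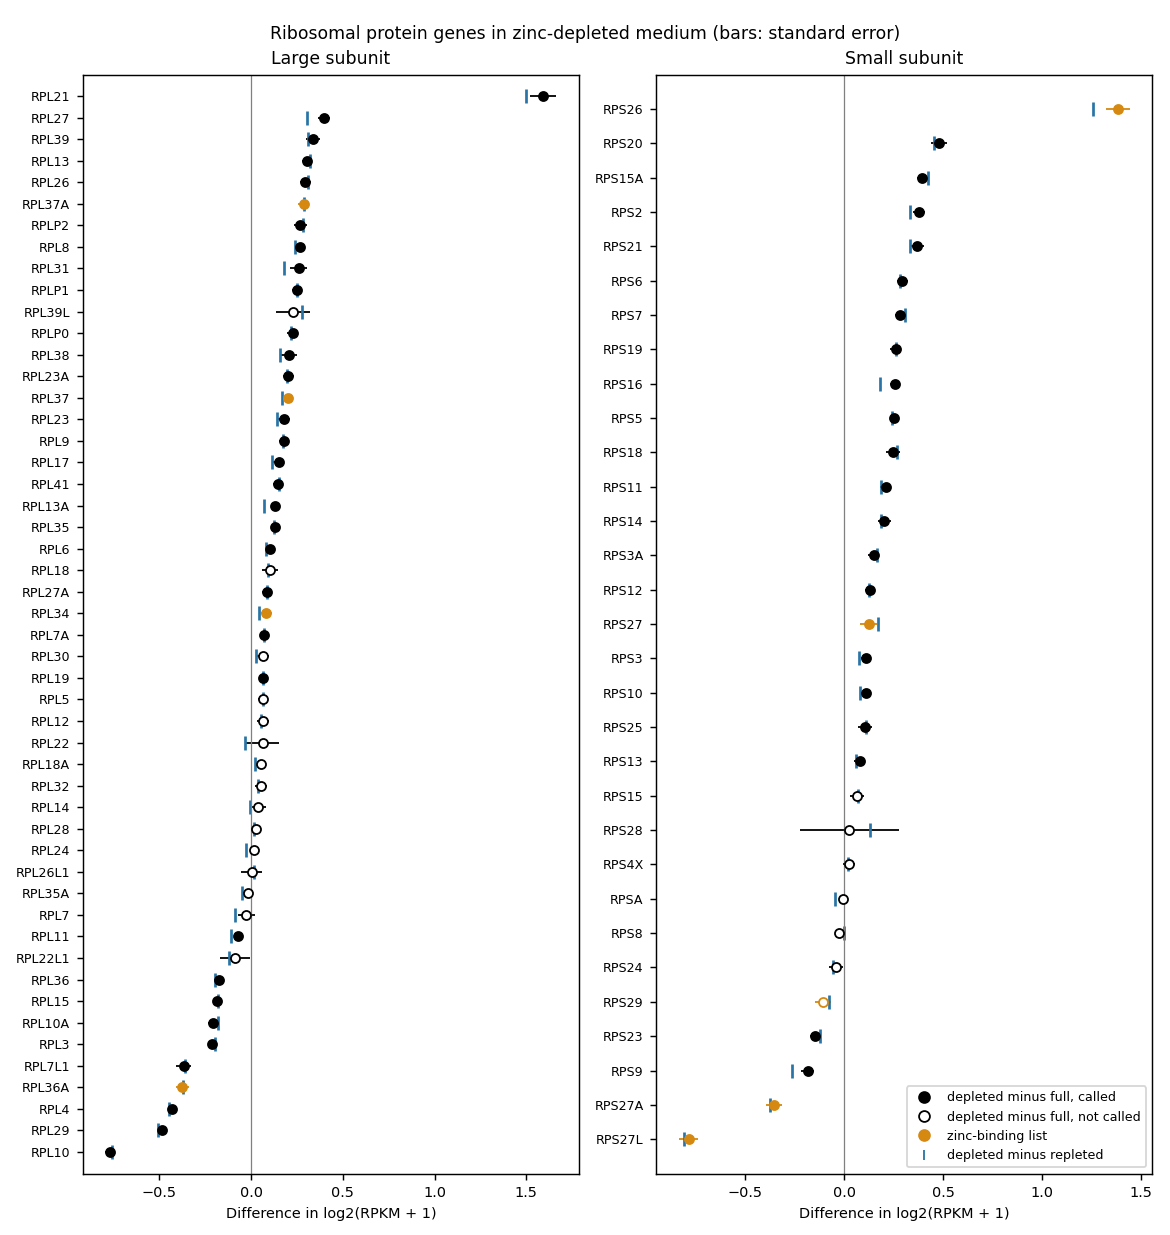
Difference in log2(RPKM + 1) of tested members, by subunit and sorted, for depleted minus full medium (circles with standard error, filled where called, orange for the zinc-binding list) and depleted minus repleted medium (blue ticks). RPL21 at 1.59 and RPS26 at 1.38 stand far to the right of all other members, and RPS27L at -0.78 and RPL10 at -0.77 furthest to the left.

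The largest rises after RPL21 and RPS26, which are described further on, were modest. RPS20, a small subunit protein, had 752, 768 and 763 RPKM in depleted libraries, 579, 532 and 555 RPKM in repleted and 560, 563 and 516 RPKM in full libraries. All 3 depleted libraries lay above the other 6, and the difference was 0.48 (SE 0.04) against full medium (limma adjusted p = 5.62e-06) and 0.45 against repleted medium (limma adjusted p = 7.79e-06). RPL27 averaged 2225 ± 102 RPKM in depleted against 1798 ± 36.0 in repleted and 1687 ± 36.7 in full medium, a log2 difference of 0.40 from full medium. RPS15A averaged 1317 ± 24.4 RPKM in depleted, 980 ± 10.9 RPKM in repleted and 1003 ± 17.7 RPKM in full medium, a difference of 0.39 from full medium. RPS2, which lies at the mRNA entry site, had differences of 0.38 from full and 0.33 from repleted medium. RPS21 (0.37), RPL39 (0.33) and RPL13 (0.30) were also among the 10 largest rises against full medium. RPL39, which lines the exit tunnel of the nascent chain, averaged 1871 ± 74.9 RPKM in depleted, 1509 ± 49.1 RPKM in repleted and 1483 ± 56.4 RPKM in full medium. The call of RPS2 was lost after quantile normalization (log2 0.12, limma adjusted p = 0.0591).

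RPL10 had the largest fall among the abundant members. RPL10, encoded on the X chromosome, joins the large subunit late in its maturation, next to the site where tRNA is accommodated. It had 879, 948 and 896 RPKM in depleted libraries, 1531, 1522 and 1557 RPKM in repleted and 1539, 1545 and 1551 RPKM in full libraries. No depleted library came near the other 6, whose values differed by little. The depleted level was 0.588 of the full level (log2 -0.77, SE 0.03, limma adjusted p = 3.18e-08) and 0.591 of the repleted level (log2 -0.76, limma adjusted p = 3.29e-08).

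RPL29 and RPL4 also fell with tight spreads. RPL29 had 923, 934 and 942 RPKM in depleted libraries, 1332, 1326 and 1325 RPKM in repleted and 1319, 1327 and 1276 RPKM in full libraries. Its difference was -0.49 against full (SE 0.02, limma adjusted p = 8.65e-08) and -0.51 against repleted medium (limma adjusted p = 6.56e-08). RPL4, whose extension reaches into the exit tunnel, had 1720, 1761 and 1788 RPKM in depleted libraries, 2389, 2394 and 2403 RPKM in repleted and 2425, 2348 and 2327 RPKM in full libraries. Its difference from full medium was -0.43 (SE 0.02, limma adjusted p = 2.49e-07), and the depleted libraries lay below all others. RPL3, near the peptidyl transferase centre, differed by -0.21, RPL10A by -0.21 and RPL15 by -0.19, all called against full medium. RPL36A, RPS27A, RPS27L and RPL7L1, the other members among the 10 largest falls, are taken up with their groups.

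The other 4 falls against full medium were in RPS9 (-0.18), RPL36 (-0.18), RPS23 (-0.15) and RPL11 (-0.07), named here after their values were seen apart from RPL11. RPS9 had a mean of 926 RPKM in depleted, 1113 RPKM in repleted and 1051 RPKM in full medium. RPS23, which lies at the decoding centre, had 1779 RPKM in depleted, 1934 RPKM in repleted and 1968 RPKM in full medium. Of the 23 members that were not called, RPS29 had the lowest difference, -0.11. The members are spread over the genome: the 84 with a RefSeq entry lay on 21 chromosomes.

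The zinc-binding members did not move in 1 direction. The list held 9 members, RPL34, RPL36A, RPL37, RPL37A, RPS26, RPS27, RPS27L, RPS27A and RPS29, and all were tested. In depleted against full medium 5 rose and 3 fell (median log2 0.08), and against repleted medium 4 rose and 3 fell (median 0.04). Against full medium these were 55.6% higher and 33.3% lower, beside 29.8% and 31.2% of all genes tested. Against repleted medium they were 44.4% and 33.3%, beside 29.5% and 31.2%. Of the 74 other tested members 41 rose (55.4%) and 11 fell (14.9%) in each of these comparisons, with medians of 0.11 and 0.09.

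RPL37A, a small large-subunit protein with a zinc ribbon, had 1881, 1975 and 1922 RPKM in depleted libraries, 1626.5, 1512 and 1586 RPKM in repleted and 1586, 1584 and 1569 RPKM in full libraries. The depleted libraries lay above the rest, with a difference of 0.29 from full (SE 0.03, limma adjusted p = 2.19e-05) and from repleted medium (limma adjusted p = 1.94e-05). RPL37 averaged 1390 ± 26.6 RPKM in depleted, 1236 ± 39.3 RPKM in repleted and 1210 ± 30.8 RPKM in full medium, a difference of 0.20 from full medium (limma adjusted p = 0.000263). RPS27 had 1602, 1713 and 1682 RPKM in depleted, 1524, 1393 and 1519 RPKM in repleted and 1593, 1536 and 1458 RPKM in full libraries. Its depleted values lay above the others by a narrow margin, 0.12 over full medium (limma adjusted p = 0.0351), and the call was lost without depleted replicate 2 (0.111) or 3 (0.0904), or full replicate 2 (0.0693) or 3 (0.125), with no filter (0.108) and after quantile normalization (0.0819). RPL34 differed from full medium by 0.08 (limma adjusted p = 0.0376), a call lost without depleted replicate 2 (0.118) or 3 (0.0922) or full replicate 3 (0.132), with no filter (0.11) and after quantile normalization (0.905). Against repleted medium RPL34 was not called (limma adjusted p = 0.267). RPS29 averaged 1054 ± 60.4 RPKM in depleted, 1108 ± 40.3 RPKM in repleted and 1134 ± 27.1 RPKM in full medium and was not called against full medium (log2 -0.11, limma adjusted p = 0.0521). Without depleted replicate 2, the highest of its group, or repleted replicate 1 that p was 0.00565 or 0.0459, and it was 0.0352 among protein-coding genes alone and 0.00247 after quantile normalization.

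Of the zinc-binding members that fell, RPL36A had 1005, 1048 and 998 RPKM in depleted libraries, 1352, 1280 and 1314 RPKM in repleted and 1387, 1313 and 1260 RPKM in full libraries. Its difference was -0.37 from full (SE 0.04, limma adjusted p = 1.97e-05) and from repleted medium (limma adjusted p = 2.14e-05). RPL36AL, which encodes nearly the same protein, fell too, with means of 111 ± 3.58 RPKM in depleted, 154 ± 9.27 RPKM in repleted and 150 ± 4.01 RPKM in full medium (log2 -0.43 from full medium, limma adjusted p = 3.04e-05). RPS27A, made as a fusion with ubiquitin, had 798, 873 and 839 RPKM in depleted libraries, 1066, 1072 and 1111 RPKM in repleted and 1124, 1052 and 1034 RPKM in full libraries, a difference of -0.36 from full medium (limma adjusted p = 4.66e-05). No depleted value of RPS27A overlapped the other 6 libraries.

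**Figure D3:**
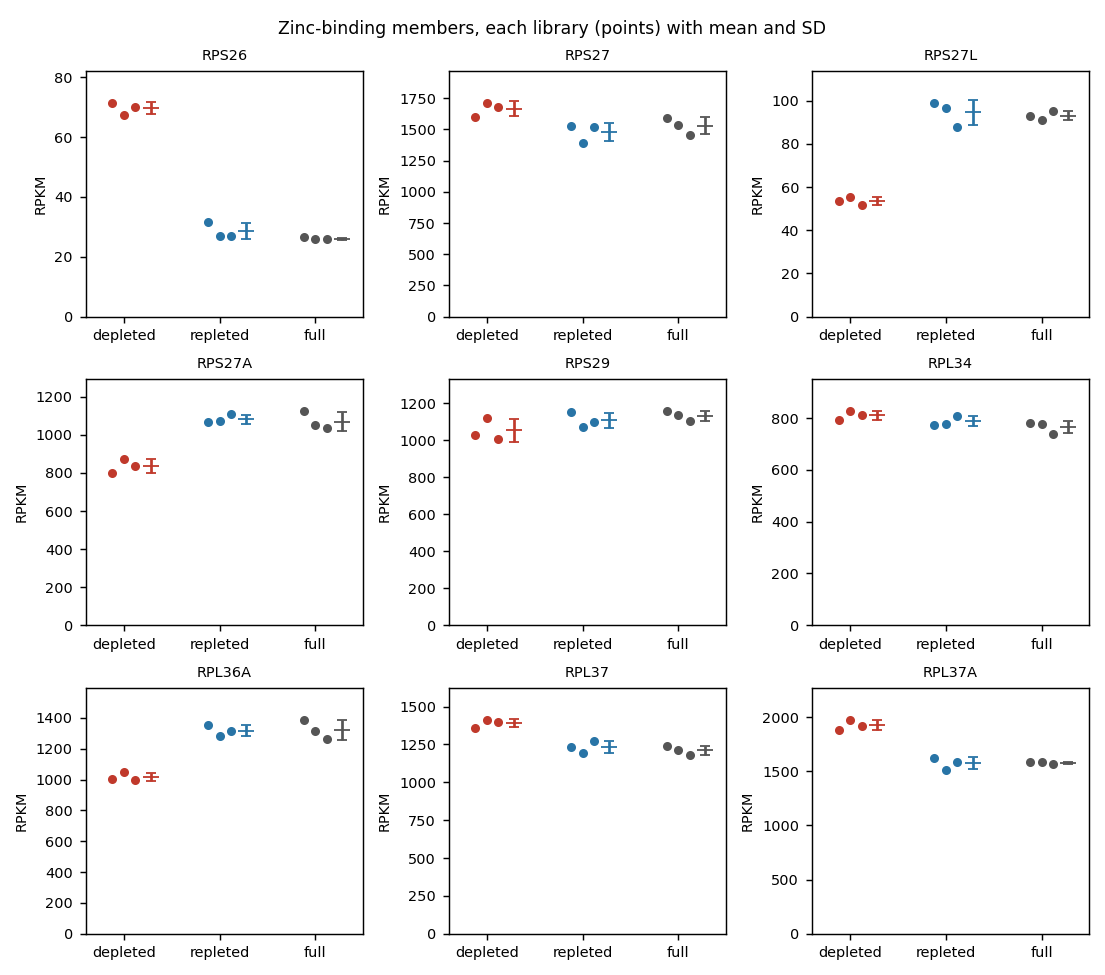
RPKM of the 9 zinc-binding members in each library (points), with mean and SD beside them, for depleted, repleted and full medium; each axis starts at 0. RPS26, RPL37 and RPL37A are higher in the 3 depleted libraries, RPS27L, RPS27A and RPL36A are lower, and RPS27, RPS29 and RPL34 differ by little.

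RPS27L showed the largest fall of any tested member in the deposited values. It encodes a paralog of the zinc-binding RPS27 and is known as a target of p53. It had 53.7, 55.6 and 51.5 RPKM in depleted libraries, 99.1, 96.8 and 87.9 RPKM in repleted and 93.0, 91.1 and 95.1 RPKM in full libraries. The depleted level was 0.576 of the full (log2 -0.78, SE 0.05, limma adjusted p = 9.28e-07) and 0.567 of the repleted level (log2 -0.81, limma adjusted p = 7.87e-07). Relative to RPS27 in the same library, RPS27L stood at 3.35%, 3.24% and 3.06% in depleted libraries, 6.5%, 6.95% and 5.79% in repleted and 5.84%, 5.93% and 6.52% in full libraries. The ratio was lower in all 3 depleted libraries than in any other, by 0.91 on the log2 scale below full medium (exact permutation p = 0.1, two-sided, the smallest that 3 against 3 libraries allow; adjusted p = 0.167 over 10 tests of 5 pairs in 2 comparisons).

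The other paralogs changed less relative to their parent genes. RPL7L1, whose yeast homolog is a nucleolar assembly factor, fell (log2 -0.37 from full medium, limma adjusted p = 4.08e-05), while RPL7 was not called (log2 -0.03), except after quantile normalization (log2 -0.15, limma adjusted p = 0.0211). RPL7L1 stood at 12.7%, 11.8% and 12.4% of RPL7 in depleted, 14.972%, 14.955% and 14.733% in repleted and 15.3%, 15.3% and 16.3% in full libraries. RPL26L1 was level, at 89.4 ± 7.40 RPKM in depleted, 88.1 ± 2.15 RPKM in repleted and 89.1 ± 1.53 RPKM in full medium (log2 0.00), while its parent RPL26 rose by 0.30. RPL26L1 was 6.46% ± 0.645 of RPL26 in depleted against 7.89% ± 0.132 in repleted and 7.89% ± 0.041 in full medium, and here too the depleted libraries were the 3 lowest. These ratios also reached the smallest possible exact permutation p of 0.1, with adjusted p = 0.167. The ratios of RPL22L1 to RPL22 (4.49% ± 0.343, 4.80% ± 0.542 and 5.02% ± 0.657 in depleted, repleted and full medium) and of RPL39L to RPL39 (1.42% ± 0.163, 1.45% ± 0.224 and 1.51% ± 0.07) overlapped between groups. RPL39L itself was called against repleted medium (log2 0.27, limma adjusted p = 0.0281) and not against full medium (log2 0.23, limma adjusted p = 0.0582), where it passed without depleted replicate 2 (0.0417), repleted replicate 2 (0.0124) or repleted replicate 3 (0.0354), with only the 6 libraries compared (0.0134), after median centring (0.0202) and among protein-coding genes alone (0.0422). The call against repleted medium was lost without depleted replicate 1 (0.0946) or 3 (0.0697) or repleted replicate 1 (0.0818) or 3 (0.096), with no filter (0.0686) and with only the 6 libraries compared (0.0571).

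**Figure D4:**
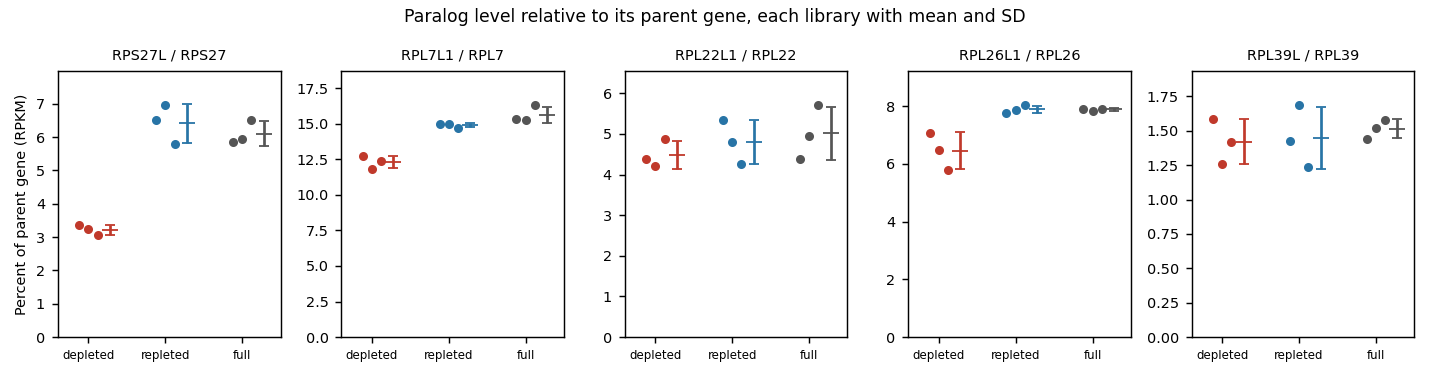
Level of each paralog as a percent of its parent gene (ratio of RPKM) in each library, with mean and SD, for depleted, repleted and full medium; each axis starts at 0. RPS27L, RPL7L1 and RPL26L1 are lower relative to their parents in all 3 depleted libraries, and the points of RPL22L1 and RPL39L overlap between media.

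RPL21 and RPS26 rose most in the deposited values, and both share their coding sequence with pseudogenes that held more reads than they did. A ribosomal protein pseudogene is usually a copy of the mRNA inserted elsewhere in the genome, and short reads from the copied part can match both places. The coding sequences of 84 members in GENCODE 29 were therefore aligned to the transcripts of genes that the deposited table classes as pseudogenes. Those of at least 95% identity over at least 50% of a coding sequence were taken as its copies, 270 for 64 members. Copies in other classes of gene were not searched for. A stretch of 90 bases of each sequence, with the base that differs in capitals, shows how closely the most abundant copies follow the genes.
RPS26: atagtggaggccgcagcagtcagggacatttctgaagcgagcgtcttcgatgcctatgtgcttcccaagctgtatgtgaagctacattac
AC004057.1: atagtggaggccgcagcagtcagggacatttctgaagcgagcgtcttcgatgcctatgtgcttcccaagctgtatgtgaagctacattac
RPL21: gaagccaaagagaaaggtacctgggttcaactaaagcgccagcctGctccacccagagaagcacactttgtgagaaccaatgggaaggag
RPL21P75: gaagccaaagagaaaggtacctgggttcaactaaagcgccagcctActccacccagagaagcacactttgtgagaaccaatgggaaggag

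The RPS26 stretch is bases 130 to 219 of its coding sequence, on chromosome 12, and that of the pseudogene AC004057.1 lies at chr4:113214175-113214264 on the minus strand (GRCh38, from GENCODE 29). The pseudogene matched all 348 coding bases of RPS26. The RPL21 stretch is bases 352 to 441 of its coding sequence, on chromosome 13, and that of RPL21P75 lies at chr7:20003116-20003205 on the plus strand of the same build. RPL21P75 differed from RPL21 at 1 of 483 coding bases, and RPL21P16 at 0.

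RPS26, a zinc-binding protein at the mRNA exit site, had 71.5, 67.5 and 70.2 RPKM in depleted libraries, 31.7, 27.1 and 27.1 RPKM in repleted and 26.5, 25.8 and 26.0 RPKM in full libraries. Taken alone it was 2.67-fold higher in depleted than in full medium (log2 1.38, SE 0.06, limma adjusted p = 9.40e-08). AC004057.1 had 150, 155 and 149 RPKM in depleted libraries, 673, 639 and 689 RPKM in repleted and 647, 655 and 622 RPKM in full libraries, so it was far lower in each depleted library. Reads of RPS26 and its 21 aligned pseudogenes, pooled and divided by the effective length of RPS26 alone, gave 147, 145 and 145 RPKM in depleted, 367, 346 and 370 RPKM in repleted and 349, 352 and 335 RPKM in full libraries. The pooled value was 0.421 of that in full medium (log2 -1.24, SE 0.03, limma adjusted p = 5.13e-09) and 0.403 of that in repleted medium (log2 -1.31, limma adjusted p = 3.59e-09). The direction for RPS26 was thus opposite when its copies were counted with it.

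RPL21 had 182, 176 and 176 RPKM in depleted libraries, 63.9, 64.5 and 58.5 RPKM in repleted and 65.0, 58.7 and 52.1 RPKM in full libraries. On its own this was a 3.04-fold higher level than in full medium (log2 1.59, SE 0.07, limma adjusted p = 1.15e-07). RPL21P75 had 236, 227 and 253 RPKM in depleted, 374, 364 and 370 RPKM in repleted and 407, 391 and 361 RPKM in full libraries. RPL21P16, listed under a clone name in the deposited table, averaged 176 ± 31.3 RPKM in depleted, 257 ± 11.9 RPKM in repleted and 257 ± 8.26 RPKM in full medium. Both copies were lower in the depleted libraries while the gene was higher. Pooled with all its aligned pseudogenes, RPL21 averaged 477 ± 13.2 RPKM in depleted, 514 ± 3.44 RPKM in repleted and 524 ± 18.4 RPKM in full medium, so that the depleted level was 0.911 of the full level (log2 -0.13, SE 0.03, limma adjusted p = 0.00418). With only the pseudogenes whose symbols carry its name, the difference was 0.04 (limma adjusted p = 0.491). The table does not tell at which locus these reads arose, and how reads matching several places were divided is not given in the sources used here.

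**Figure D5:**
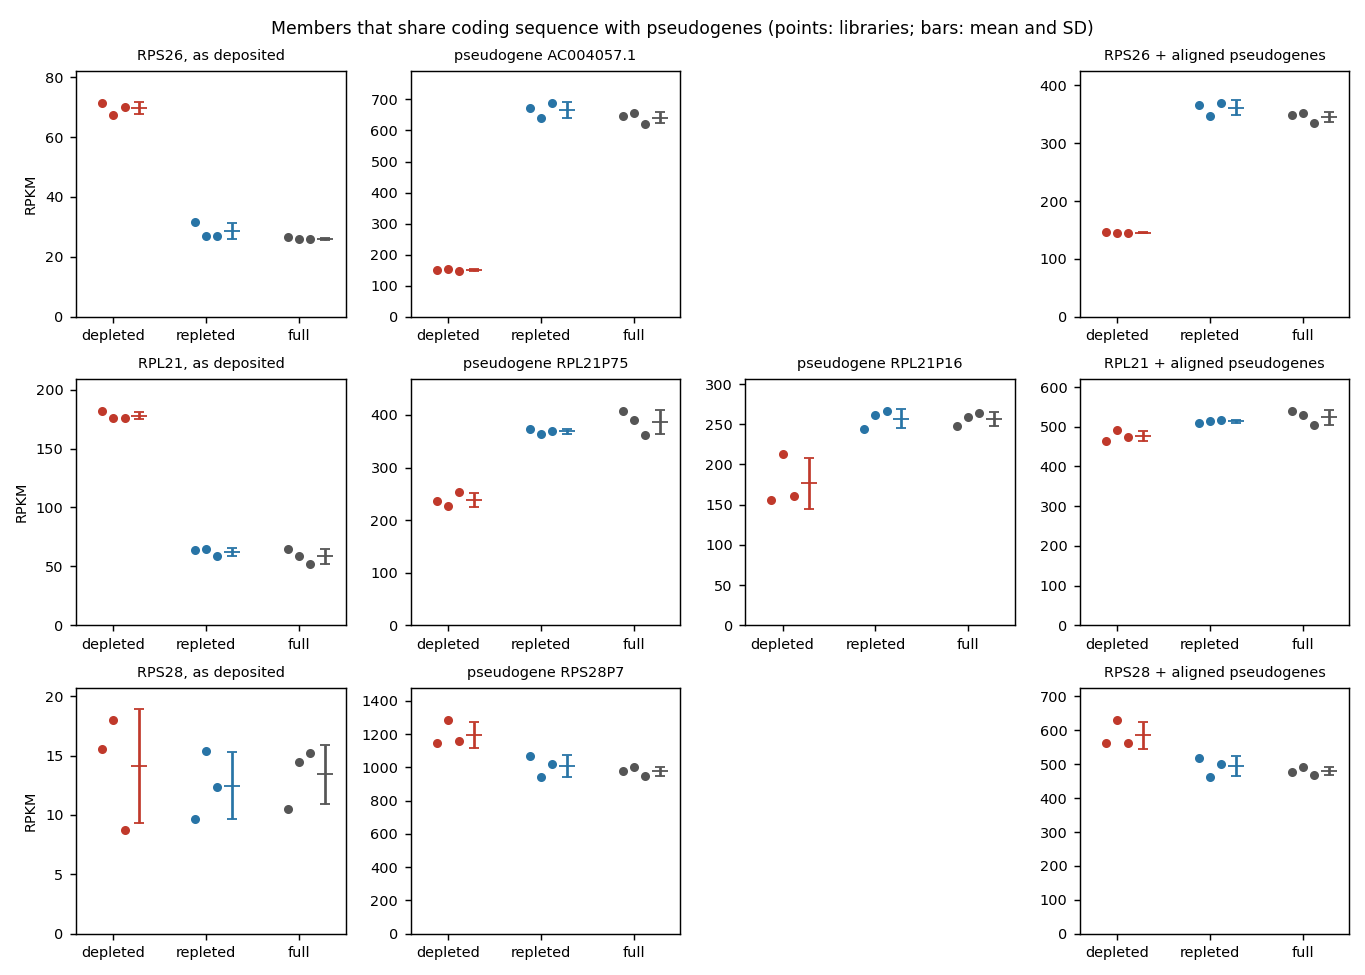
RPKM in each library (points) with mean and SD, for depleted, repleted and full medium, of RPS26, RPL21 and RPS28 as deposited (left), of their most abundant aligned pseudogenes (middle) and of each gene pooled with all its aligned pseudogenes (right); each axis starts at 0. RPS26 and RPL21 are higher in depleted medium as deposited and lower once pooled, and RPS28 is level as deposited and higher once pooled.

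RPS28, chosen here after its values were seen, was level alone and higher in depleted medium once pooled. RPS28 had 15.6, 18.0 and 8.73 RPKM in depleted, 9.69, 15.4 and 12.3 RPKM in repleted and 10.54, 14.4 and 15.3 RPKM in full libraries and was not called. Its copy RPS28P7, identical over all 210 coding bases, had 1145, 1286 and 1158 RPKM in depleted, 1070, 939 and 1023 RPKM in repleted and 980, 1000 and 949 RPKM in full libraries. The pooled value averaged 586 ± 39.4 RPKM in depleted, 495 ± 28.6 RPKM in repleted and 479 ± 12.6 RPKM in full medium (log2 0.29 from full medium, limma adjusted p = 0.0012). For most other members the difference from full medium was similar when pooled, even for those with abundant copies. The RPKM itself could rise, in RPL23A from 820 alone to 1866 pooled in full medium. RPL41, whose copy RPL41P1 averaged 2449, 2221 and 2252 RPKM in depleted, repleted and full medium, differed from full medium by 0.15 alone and by 0.13 pooled. RPL23A differed by 0.20 alone and by 0.16 pooled with RPL23AP42 and its other copies. RPL36A differed by -0.37 alone and by -0.36 pooled. Over all 83 tested members, pooling gave 45 rises and 16 falls against full medium and 44 and 16 against repleted medium. In the zinc-binding list it gave 4 rises and 4 falls against full medium, with a median of -0.11 in place of 0.08. Against full medium the pooled shares were 54.2% higher and 19.3% lower for all members, and 44.4% each way in the zinc-binding list. With the same pooling 29.7% of all genes tested rose and 31.2% fell.

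The stalk proteins rose together. RPLP0, RPLP1 and RPLP2 form the flexible stalk that recruits the translation factors with GTPase activity. RPLP1 had 2243, 2365 and 2246 RPKM in depleted libraries, 1992, 1866 and 1908 RPKM in repleted and 1908, 1925 and 1930 RPKM in full libraries. All 3 depleted libraries exceeded the others, by 0.25 on the log2 scale over full medium (SE 0.03, limma adjusted p = 5.48e-05). RPLP0 differed from full medium by 0.23 and RPLP2 by 0.27, so 3 of 3 were called, beside 60.9% of all genes tested. The signs were the same against repleted medium.

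The members that bind the p53 regulator MDM2 when ribosome assembly is disturbed differed among themselves. RPL5 and RPL11 form a particle with 5S ribosomal RNA, and RPL23 and RPL26 also bind MDM2. RPL5 had 1485, 1585 and 1535 RPKM in depleted, 1477, 1458 and 1476 RPKM in repleted and 1482, 1477 and 1448 RPKM in full libraries. Its difference of 0.06 from full medium missed the threshold (limma adjusted p = 0.0512) and passed without depleted replicate 1 (0.0102), after median centring (0.0166) or quantile normalization (0.0394), with a pseudocount of 0.1 (0.0474), with the filter on the mean (0.05, just inside) and among protein-coding genes alone (0.0414). RPL11 averaged 1390 ± 19.8 RPKM in depleted, 1499 ± 14.2 RPKM in repleted and 1463 ± 36.6 RPKM in full medium. Its difference was -0.07 from full (limma adjusted p = 0.0194) and -0.11 from repleted medium (limma adjusted p = 0.00241); the call against full medium was lost without depleted replicate 1 (0.0624) or full replicate 1 (0.0732), with no filter (0.0906) and after quantile normalization (0.105), and both calls were lost after median centring (0.463 and 0.118). RPL23 rose by 0.18 and RPL26 by 0.30 over full medium. RPL26 had 1328, 1436 and 1395 RPKM in depleted, 1122, 1100 and 1128 RPKM in repleted and 1145, 1135 and 1106 RPKM in full libraries, with no overlap between the depleted libraries and the rest.

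The TOP tract was looked for at the annotated transcription starts of RefSeq (GRCh38.p14). A TOP start was taken as C followed by at least 4 letters C or T, beginning exactly at the start. Of the 67 members in that table, 47 had such a start (70.1%), against 5.14% of 27305 genes. The start windows of members that differ in their response are given with 15 bases before and 15 from the start onward, the pyrimidine run in capitals where there is a TOP start.
RPL10: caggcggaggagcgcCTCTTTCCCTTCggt
RPL29: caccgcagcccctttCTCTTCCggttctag
RPL21: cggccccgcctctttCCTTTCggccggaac
RPS27: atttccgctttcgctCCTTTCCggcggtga
RPS27L: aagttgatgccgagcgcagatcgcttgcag
RPL22: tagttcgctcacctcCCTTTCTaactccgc
RPL22L1: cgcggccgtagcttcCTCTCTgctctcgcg

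These windows lie at chrX:154398362-154398391 on the plus strand for RPL10, chr3:51995881-51995910 on the minus strand for RPL29 and chr13:27251543-27251572 on the plus strand for RPL21. That of RPS27 is chr1:153990747-153990776 on the plus strand, that of RPS27L chr15:63157463-63157492 on the minus strand, that of RPL22 chr1:6199581-6199610 on the minus strand and that of RPL22L1 chr3:170870181-170870210 on the minus strand. RPL10, the most strongly lowered abundant member, had a run of 12 pyrimidines, the longest of those shown, at 1 of the 3 starts listed for it. RPS27 began with a TOP tract of 7 bases, and no such tract was in the RPS27L window, whereas RPL22 and its paralog RPL22L1 both had one. Of the 47 members with a TOP start 29 rose (61.7%) and 8 fell (17%) in depleted against full medium (median log2 0.11). Of the 19 tested members of the table without one, 7 rose (36.8%) and 6 fell (31.6%), with a median of 0.03. Of all genes tested 29.8% rose and 31.2% fell. With aligned pseudogenes pooled, 28 members with a TOP start rose (59.6%) and 9 fell (19.1%). Of those without one, 7 rose and 7 fell (36.8% each), beside 29.7% and 31.2% of all genes. Having no TOP start here means only that no annotated start met the definition. The difference between members with and without a TOP start was not tested.

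Genes outside the member rule that share the TOP tract or act on ribosomal proteins moved in both directions. Of 17 listed genes of other TOP mRNAs, chiefly translation factors, 6 rose (35.3%) and 7 fell (41.2%) in depleted against full medium, with a median log2 difference of 0.02. These shares lie near the 29.8% higher and 31.2% lower of all genes tested. TPT1 averaged 1118 ± 41.7 RPKM in depleted, 780 ± 21.4 RPKM in repleted and 789 ± 15 RPKM in full medium, and rose by 0.50 over full medium. The helicase gene EIF4A2 averaged 62.2 ± 2.88 RPKM in depleted, 136 ± 4.86 RPKM in repleted and 126 ± 9.57 RPKM in full medium and fell (log2 -1.01). HNRNPA1 (log2 -0.61) and the elongation factor subunit gene EEF1G (-0.32) also fell. Of ribosomal protein genes with other names, GNB2L1 rose, RPL36AL fell and FAU was not called.

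Of 12 listed chaperones and loading factors of ribosomal proteins, 1 rose (8.33%) and 5 fell (41.7%), with a median log2 difference of -0.07, beside the same 29.8% and 31.2% of all genes. TSR2, the homolog of the yeast factor that delivers the RPS26 protein, had 36.1, 37.2 and 38.6 RPKM in depleted libraries, 50.1, 49.02 and 49.5 RPKM in repleted and 46.8, 47.5 and 47.9 RPKM in full libraries. It was lower in every depleted library than in the other 6 (log2 -0.34 from full medium, limma adjusted p = 3.69e-05). GRWD1, whose yeast homolog escorts RPL3, differed by -0.34, EIF6, which keeps the subunits apart, by -0.55, and PDCD2, which binds RPS2, by -0.11. AAMP, whose yeast homolog escorts RPL10, was the gene that rose (log2 0.11, limma adjusted p = 0.0249) and is named after its value was seen. Of 5 genes of proteins that bind TOP or other translated mRNAs, 3 rose (60%) and 2 fell (40%), beside 29.8% and 31.2% of all genes. LARP4 and LARP4B were among those that rose (0.40 and 0.38), and LARP1 (-0.20) and CNBP (-0.23) fell. LARP1, which holds TOP mRNAs in store, averaged 108 ± 2.72 RPKM in depleted, 126 ± 3.75 RPKM in repleted and 125 ± 1.87 RPKM in full medium.

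Of 10 listed genes of ribosome rescue, quality control and storage, 4 rose (40%) and 3 fell (30%), shares close to the 29.8% and 31.2% of all genes. The rescue factor PELO rose by 0.62 over full medium and the storage factor HABP4 by 0.45, while the storage factor SERBP1 fell by 0.34 on the log2 scale. IFRD2, which binds and silences ribosomes in rabbit reticulocytes, had 15.7, 15.2 and 13.1 RPKM in depleted libraries, 61.5, 64.7 and 61.3 RPKM in repleted and 59.1, 61.2 and 59.0 RPKM in full libraries. Its difference of -1.96 from full medium (SE 0.06, limma adjusted p = 1.72e-08) was larger in size than that of any tested ribosomal protein gene.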

How the data were processed

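Gene expression was measured in 9 libraries, 3 per medium. The authors deposited log2 of RPKM plus 1 for each gene, together with gene lengths in nucleotides, and no read counts were used. Per the submitters' processing notes the tools included bedtools 2.25.0.3, BWA 0.7.12-r1039, Bowtie 1.0.1 and RSEM 1.2.6, with builds GRCh37 and hg19 and no stated role. Undoing the log gave multiples of 0.01 RPKM. Library totals were estimated from the steps between low values of short genes (58.4% to 66.0% of checked values were whole reads within 0.1 read) and served only as a description; 0 value columns were of unknown sample. RPKM depends on the library total, so a change in abundant genes moves the others, and it gives no molecules per cell.

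limma 3.58.1 in R 4.3.3 was fitted to all 9 libraries on the log2 scale as deposited, with 1 mean per group and a mean-variance trend. The test covered genes reaching 1 RPKM in 3 or more libraries, with Benjamini-Hochberg adjustment at 0.05. The p-values measure the spread between these cultures. Exact permutation tests (scipy 1.17.1) were used for ratios of paralogs. Pooled values summed RPKM times effective length over a member and its pseudogenes and divided by the member's effective length. Pseudogenes were found with BLAST 2.17.0 on the same strand, against GENCODE 29 transcripts of genes classed as pseudogenes in the deposited table. Build and annotation differ from those of the values, so identity came from the later build and levels from the deposited table. RefSeq promoters gave the start windows. The model was tested on simulated data. Alternatives were a pseudocount of 0.1, no filter, a mean of at least 1 RPKM, only the 6 libraries compared, replicate number as a block, median centring, quantile normalization, protein-coding genes alone, a threshold of 0.01, each library left out, and named pseudogenes pooled; pooling aligned pseudogenes was chosen after seeing the data.

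Members and lists were chosen with earlier results of these data known. The genes named were the zinc-binding, paralog, stalk and MDM2-binding members, the 10 largest called rises and falls against full medium, the 3 largest against repleted medium, and up to 4 genes by smallest p in each further list; RPS28, RPL41, RPL23A, RPS19, RPL8, AAMP and the pseudogenes were named after their values were seen. Protein sequences and reads were not used here. Counts and medians cover all members; values of some single genes are not reported here.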

Additional observations from a re-analysis of the deposited data

How the results depend on the processing

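Counts of members called against full medium ranged from 39 higher (quantile normalization) to 54 higher (median centring) beside 46, and from 13 to 17 lower beside 14. The members' median difference was 0.15 after median centring and 0.068 after quantile normalization against full medium, and 0.14 and 0.056 against repleted medium. The median of all genes moved as well, to 0.047 and 0.0386 against full medium and to 0.0395 and 0.0318 against repleted medium. With the values as deposited it was 0.0008 and -0.0102. Over all genes the same scalings gave 32.9% higher and 28.5% lower, and 32.1% and 28.8%, in place of 29.8% and 31.2%. Replicate numbers did not pair the libraries (residual correlation -0.014 to 0.073 for equal numbers, -0.061 to 0.042 for others); with the replicate number as a block 41 members were higher and 14 lower than in full medium, and among named members the calls of RPL34 (0.0679) and RPS27 (0.0634) were lost.

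The members' share of the length-weighted sum was 7.15%, 6.75% and 6.67% in depleted, repleted and full medium among protein-coding genes alone. It was 7.14%, 6.74% and 6.69% with named pseudogenes and 7.30%, 6.91% and 6.86% with aligned pseudogenes.

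Pooling aligned pseudogenes reversed RPS26 (-1.24 against full, -1.31 against repleted medium) and RPL21 (-0.13 and -0.11); the cause was not tested. Directions of uncalled differences near 0 also turned. RPL26L1 was -0.016 (full) and -0.0019 (repleted) after quantile normalization, RPL34 -0.057 against repleted medium after it, and after median centring RPL7 was 0.019 against full and RPL22 0.015 against repleted medium. Leaving out a library gave -0.019 to 0.12 for RPL22, -0.036 to 0.072 for RPL26L1 and -0.054 to 0.0091 for RPL7 against full medium. Against repleted medium it gave -0.12 to 0.039 for RPL22, -0.0203 to 0.088 for RPL26L1 and -0.14 to 0.074 for the ratio of RPL39L to RPL39.

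Counted over every named member and alternative, direction and side of the threshold were kept in 711 of 760 cases against full medium and 735 of 760 against repleted medium. Another filter, the replicate block, protein-coding genes alone and a stricter threshold left the log2 difference itself unchanged. So did using only the libraries compared or leaving out a library of the group not compared. Direction could not turn in those cases. Many named members were also chosen for their large called differences, so these counts do not measure how stable the results are. RPL10L and RPL3L were not tested because they did not reach 1 RPKM in 3 libraries. Depth was known only as an estimate.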
